A study of Homo sapiens with 6 samples.

Results

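The expressed long intergenic noncoding RNAs of irradiated human tubular cells comprised 252 gene names of the 34644 in the tables. They were chosen by name (LINC followed by digits, or MALAT1, NEAT1, PVT1, H19 or MEG3) and by a measured value, a summed count of at least 60 over the 6 libraries. The tables listed 2162 names of these kinds, of which 930 had no count and 980 had between 1 and 59 counts. The count was summed over both groups, so the choice did not use the difference between them. The cells were HK-2, an immortalized line of human proximal tubular epithelium, in which each group was a line made with lentivirus. Cells of the control group (IR+NC-LV) carried the negative control lentivirus, and cells of the PRDM16 group (IR+PR-LV) carried a lentivirus overexpressing PRDM16, a zinc-finger regulator of transcription. Both groups received a single X-ray dose of 8 Gy and were harvested at day 7, with 3 libraries each, and no library from cells without irradiation was analysed here. Nothing in the labels says whether the 3 libraries of a group came from separate cultures, so p-values measure the spread between these libraries, which may be technical.

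Long intergenic noncoding RNAs (lincRNAs) are transcribed by RNA polymerase II from stretches between protein-coding genes, and most are capped, spliced and given a poly(A) tail. They encode no long protein, many stay in the nucleus close to where they are made, and the nuclear exosome removes many of them soon after transcription. A few act as scaffolds of nuclear bodies: MALAT1 gathers in nuclear speckles, which store splicing factors, and NEAT1 is the architectural RNA of paraspeckles. H19 is transcribed from the imprinted H19 and IGF2 domain, and PVT1 lies beside MYC.

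The total count per library lay between 13407074 and 28540041, at which 3 counts correspond to between 0.105 and 0.224 CPM, the count scaled to library size. PRDM16 itself had 2, 0 and 1 counts with the control virus and 14, 10 and 8 with PRDM16. Of the epithelial markers, KRT8 was at 550 ± 30.9 CPM (SD, n = 3) in the control group and 598 ± 73.4 in the PRDM16 group, and the tubular regulator PAX8 was at 167 ± 2.72 and 175 ± 21.1 CPM. CDH1, another epithelial marker, was scarce, with 8 to 17 counts per library. Of the 10 renal tubular markers, 7 had enough counts to be tested, though among these CUBN had only 14 to 26 and SLC34A1 7 to 16 counts per library. LRP2, the megalin receptor of the proximal tubule, and SLC22A6 had 0 or 1 count per library, and ANPEP had 1 to 7. Of the immune markers, PTPRC had 0 to 3 and CD3E 0 or 1 count per library, while CD14 had 28 to 64. Of the fibroblast markers, COL1A1, a collagen gene, was at 17.8, 16.9 and 22.2 CPM in the control group and 22.5, 17.7 and 17.5 CPM in the PRDM16 group, PDGFRB had 18 to 44 counts and DCN 2 to 7. Of the endothelial markers, none of which reached 60 counts, VWF had 15, 9 and 11 counts with the control virus and 1, 6 and 6 with PRDM16, PECAM1 had 5 to 12 counts per library and CDH5 0 to 2. The VWF counts did not overlap between groups, and their part in the members' values was not tested. Fewer cells and less RNA per cell cannot be told apart in bulk libraries.

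Sequences are shown for members whose features the values below turn on. The first is the end of the MALAT1 transcript (GRCh38, chr11:65505988-65506130, plus strand, from the GENCODE release 29 transcript of 8708 bases), because it bears on how a library made from poly(A) RNA captures MALAT1. As background, MALAT1 carries no ordinary poly(A) tail: its end is cut by RNase P before a tRNA-like RNA and is held in a triple helix formed by U-rich stretches and an A-rich stretch encoded in the genome. Capitals mark the run of 13 A, and the bases after it run on through the last bases of MALAT1 into the RNA that is cut off. How this end bears on the level of MALAT1 in these libraries was not tested.
MALAT1 3′ region: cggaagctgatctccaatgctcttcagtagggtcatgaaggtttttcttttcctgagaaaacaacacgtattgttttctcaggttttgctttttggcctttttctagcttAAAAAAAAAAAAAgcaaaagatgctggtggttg

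Windows of 250 bases before and 50 bases after the start of transcription were available for 153 of the 252 members (RefSeq, GRCh38.p14). Each was searched on both strands for short words of bases. The TATA box, where the polymerase machinery can be placed, was searched as TATAAA. The word CCAAT is a common promoter element. GC boxes, the sites of SP1-like factors, were searched as GGGCGG. The AP-1 element, bound by FOS and JUN proteins, was searched as TGACTCA. The half-site of nuclear receptors was searched as AGGTCA. No word contains another. Windows of 5 members are shown with TATA box, GC box and AP-1 matches in capitals, and touching or overlapping matches form a single run of capitals. MALAT1 (chr11:65497488-65497787, plus strand) and LINC01322 (chr3:165206698-165206997, plus strand) are the 2 members with the highest level per length. LINC00265 (chr7:39733318-39733617, plus strand) is among the members with the lowest p-values. LINC00963 (chr9:129488410-129488709, plus strand) and LINC02535 (chr6:85404753-85405052, minus strand) have the highest levels among the members with AP-1 letters.
MALAT1: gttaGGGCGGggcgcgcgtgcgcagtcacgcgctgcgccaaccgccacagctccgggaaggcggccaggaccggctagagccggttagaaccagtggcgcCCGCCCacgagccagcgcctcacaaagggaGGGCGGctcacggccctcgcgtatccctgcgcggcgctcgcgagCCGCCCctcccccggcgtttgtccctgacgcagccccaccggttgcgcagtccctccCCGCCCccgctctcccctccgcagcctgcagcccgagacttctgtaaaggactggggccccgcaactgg
LINC01322: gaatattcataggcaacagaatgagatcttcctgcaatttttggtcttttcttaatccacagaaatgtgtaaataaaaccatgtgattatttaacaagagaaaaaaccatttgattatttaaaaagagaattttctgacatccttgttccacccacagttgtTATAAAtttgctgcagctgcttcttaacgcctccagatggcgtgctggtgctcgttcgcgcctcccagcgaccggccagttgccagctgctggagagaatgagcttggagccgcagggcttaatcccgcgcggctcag
LINC00265: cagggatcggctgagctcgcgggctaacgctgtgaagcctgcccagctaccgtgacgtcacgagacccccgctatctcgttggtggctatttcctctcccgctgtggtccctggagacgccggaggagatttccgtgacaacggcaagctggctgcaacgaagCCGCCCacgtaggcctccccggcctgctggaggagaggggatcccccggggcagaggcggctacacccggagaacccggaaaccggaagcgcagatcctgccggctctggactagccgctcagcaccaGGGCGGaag
LINC00963: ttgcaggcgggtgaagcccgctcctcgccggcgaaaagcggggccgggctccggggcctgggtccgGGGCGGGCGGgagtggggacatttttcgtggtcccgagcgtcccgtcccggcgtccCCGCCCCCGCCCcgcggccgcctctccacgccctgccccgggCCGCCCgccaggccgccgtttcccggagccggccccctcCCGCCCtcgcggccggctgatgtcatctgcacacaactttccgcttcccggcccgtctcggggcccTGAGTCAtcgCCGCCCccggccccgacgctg
LINC02535: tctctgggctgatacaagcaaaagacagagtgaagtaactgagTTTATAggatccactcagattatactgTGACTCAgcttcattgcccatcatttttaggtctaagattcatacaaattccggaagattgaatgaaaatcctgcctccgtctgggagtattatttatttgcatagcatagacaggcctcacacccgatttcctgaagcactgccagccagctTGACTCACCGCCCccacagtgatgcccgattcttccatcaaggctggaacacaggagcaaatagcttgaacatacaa

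The MALAT1 window held 5 GC boxes and 73.7% G and C, whereas the LINC01322 window held 44.7% G and C and a TATA box 88 bases before the start. LINC02535 held AP-1 letters 180 and 27 bases before its start, and LINC00963 held them 19 bases after it. Across the 153 windows, a GC box was present in 42.5% (65 windows), beside 48.7% of 939 other lncRNA names tested and 69.9% of 10643 protein-coding names tested. Listed names of the same kinds with fewer than 60 counts had a GC box in 14.8% of 1294 windows. The median G and C content followed the same order, with 46.7% for those scarce names, 54.7% for the members, 61.0% for other tested lncRNAs and 65.3% for protein-coding names. The TATA box was present in 11.8% of the members' windows, 8.20% of other tested lncRNAs, 17.2% of the scarce names, 5.83% of protein-coding names and 11.7% of all 23491 windows. For the CCAAT letters these shares were 41.8%, 31.7%, 35.9%, 36.9% and 36.3%. The nuclear receptor half-site was present in 20.3% of the members' windows, close to the 19.8% of the scarce names. It was present in 13.3% of other tested lncRNAs, 9.65% of protein-coding names and 13.8% of all windows. AP-1 letters were present in 23 members' windows (15.0%), beside 6.28% of other tested lncRNAs, 7.34% of the scarce names, 3.11% of protein-coding names and 4.77% of all windows. These shares are descriptions without a test, and a match does not show that a factor binds.

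As a class the members were expressed at a low level, like other lncRNAs. On the TPM scale, which divides counts by gene length and allows genes to be compared, the members' median was 3.01 TPM (quartiles 1.42 and 6.82), beside 16.9 TPM over the 15110 gene names with at least 60 counts and 2.46 TPM over the other lncRNA names among them. Only 50 members exceeded 10 TPM, 9 exceeded 50 TPM, and 37 stayed below 1 TPM. The members were also shorter and simpler: the median length was 2070 bases against 4178 for all names tested, the median number of exon blocks was 4 against 9, and 8.73% against 2.64% had a single block. Together they took 0.239%, 0.229% and 0.246% of the counts of the control libraries and 0.215%, 0.211% and 0.231% of those of the PRDM16 libraries. The highest PRDM16 share was above the lowest control share. MALAT1 and NEAT1 supplied between 43.6% and 47.1% of the members' counts in a library. Without them the shares were 0.126%, 0.123% and 0.131% in the control group and 0.118%, 0.119% and 0.122% in the PRDM16 group, which did not overlap.

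MALAT1 (chr11, 65497738 to 65506516, plus strand, 1 exon block of 8779 bases) had the highest level, at 239, 229 and 233 TPM in the control group and 214, 205 and 243 TPM in the PRDM16 group. The groups overlapped. LINC01322 (chr3, 165206960 to 165513728, between SLITRK3 and BCHE) was at 146, 130 and 132 TPM and at 109, 125 and 135 TPM. Its exons sum to 753 bases only, and on the CPM scale it was at 30.9 ± 2.69 and 28.7 ± 2.96, far below NEAT1 at 478 ± 46.6 and 406 ± 38.3. NEAT1, whose row spans 22743 bases on chr11 and does not separate its short and long forms, was at 67.9, 61.0 and 80.8 TPM and at 56.4, 52.2 and 64.2 TPM. The order MALAT1, LINC01322 and then the rest held in every library, since the lowest MALAT1 value was above the highest LINC01322 value and the lowest LINC01322 value (109 TPM) was above the highest of LINC01508 (94.3 TPM).

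Below these, order held within libraries for some pairs. LINC01508 was above LINC01111 in 6 of 6 libraries, and LINC01111 was above LINC00839, LINC00958 and LINC02067 in 6 of 6. NEAT1 was below LINC01508 in 5 of 6 libraries and below LINC01111 in 4 of 6. Over all libraries their ranges met: LINC01508 (67.2 to 94.3 TPM), LINC01111 (56.9 to 75.3 TPM) and NEAT1 (52.2 to 80.8 TPM) overlapped. LINC00839 (49.2 to 57.2 TPM), LINC00958 (49.4 to 55.9 TPM), LINC02067 (43.1 to 59.5 TPM), LINC00673 (46.3 to 63.7 TPM) and PVT1 (33.4 to 58.6 TPM) overlapped too, and LINC00839, LINC00958 and LINC00673 changed places between libraries. Among these 10, LINC00839 was the one whose PRDM16 libraries all lay above the others, and PVT1 the one whose PRDM16 libraries all lay below. Their difference between groups is taken up below.

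**Figure D1:**
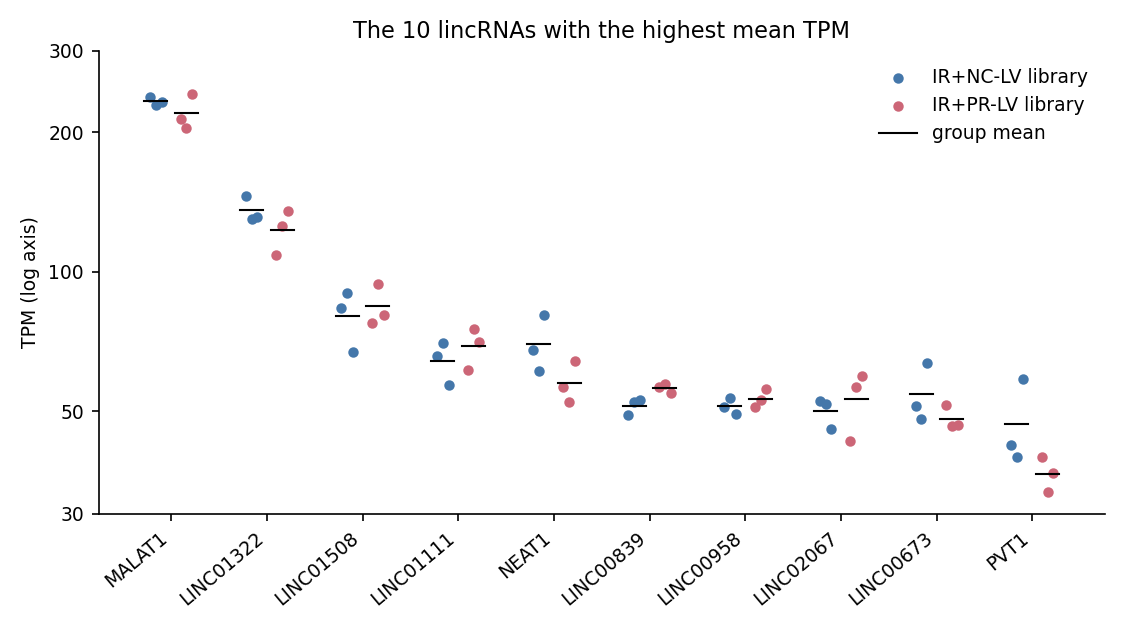
TPM (log axis) of the 10 lincRNAs with the highest mean TPM in each IR+NC-LV library (blue) and IR+PR-LV library (red), with a line at each group mean. MALAT1 lies between 205 and 243 TPM and LINC01322 between 109 and 146 TPM, and the other 8 overlap with a neighbour in the order.

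At the low end, names lay close on both sides of the count of 60. LINC01976 with 58 counts and LINC00618 and LINC02362 with 59 each lay just outside, and LINC00240 and LINC01943 with 61 and LINC01348 with 62 lay just inside. MEG3, an imprinted lncRNA, was not a member: its row of 10570 bases had 1 count in all, in a library of the PRDM16 group. H19 was a member with 74 counts and 0.617 ± 0.115 TPM in the control group and 1.01 ± 0.254 TPM in the PRDM16 group, while IGF2, its partner in the imprinted domain, had no count. Each library held between 698 and 794 LINC names with at least 1 count. At least 1 count in all 6 libraries was found for 459 names, and 312 were seen in 1 library only. In 1 random draw that brought all libraries down to the smallest total, the numbers were 699, 678 and 761 in the control group and 650, 638 and 661 in the PRDM16 group, so the groups did not overlap at this cut. For LINC names with at least 10 counts the same draw gave 212, 198 and 227 against 198, 188 and 202, which overlapped. Names of other kinds were not counted in this draw. Whether fewer detected names in the PRDM16 group is particular to LINC names therefore cannot be told.

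Whether PRDM16 changed lincRNAs in irradiated cells was asked with a fit over all 15110 gene names (edgeR quasi-likelihood test, Benjamini-Hochberg adjustment, threshold 0.05). No member passed: 0 of 252, beside 13 of all names (0.086%), 9 of them lower and 4 higher in the PRDM16 group. Before adjustment, 20 members had p under 0.05 and were lower in the PRDM16 group (7.94%, against 6.05% of all names) and 3 were higher (1.19%, against 4.41%). The groups did not overlap, with all PRDM16 libraries lower, for 35 members (13.9%, against 9.48% of all names), and with all higher for 11 members (4.37%, against 7.44%). In all, 152 members (60.3%) had a log2 fold change below 0, against 48.9% of all names, and the median log2 fold change was -0.10 against 0.0042. DESeq2, another count model, called 1 member, LINC02605 (0.397%, against 1.02% of all names), and found 11 with an unadjusted p under 0.05 (4.37%, against 8.13%).

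The lean towards lower values was shared with other scarce transcripts. In bands of summed count, chosen after the data were seen, 95 of the 146 members with 60 to under 200 counts were lower (65.1%), beside 60.03% of the 2362 gene names in that band. For 200 to under 1000 counts it was 40 of 70 members (57.1%) beside 57.3% of 2658 names. For 1000 or more it was 17 of 36 members (47.2%) beside 44.1% of 10090 names. The median log2 fold change in these bands was -0.13, -0.06 and 0.0070 for members and -0.10, -0.05 and 0.02 for all names. Other tested lncRNA names (1306, median 163 counts) were lower in 57.3%, with a median of -0.06, and protein-coding names (12989, median 3630 counts) in 47.5%, with a median of 0.0091. The part that level plays in the members' lean was not tested further. The median within-group SD on the log2 scale was 0.27 for members and 0.13 for all names, but in the bands it was 0.32 and 0.33, 0.22 and 0.20, and 0.11 and 0.11, so the scatter went with the count. In the lowest band the median standard error of a member's log2 fold change was 0.31. Per library, the members' median deviation on log2 CPM was 0.05, 0.03 and 0.09 in the control group and -0.08, -0.06 and 0.03 in the PRDM16 group, and the groups overlapped.

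**Figure D2:**
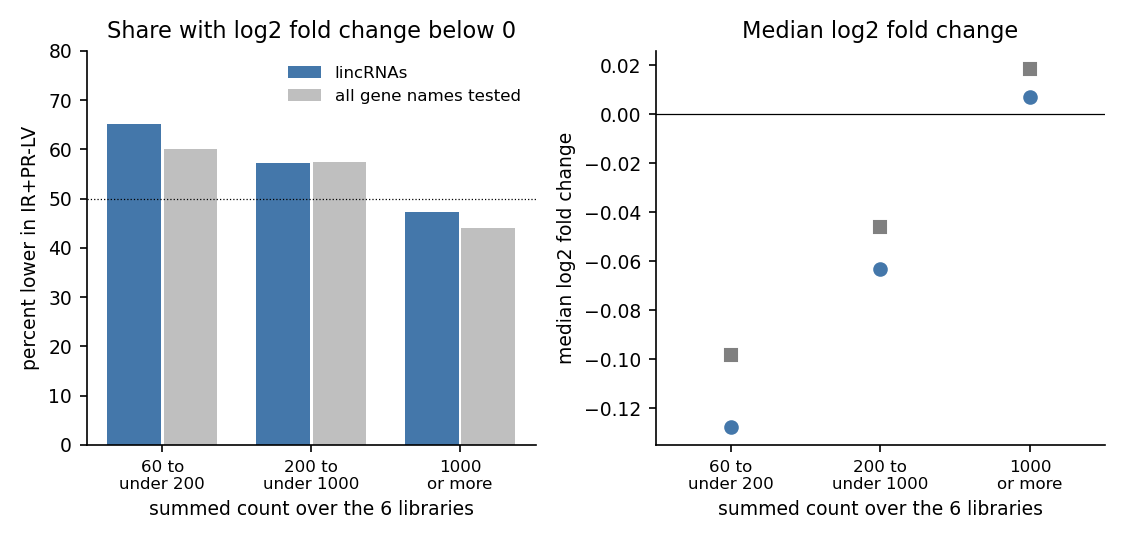
Share with a log2 fold change below 0 (left, bars from 0, dotted line at 50%) and median log2 fold change (right) in 3 bands of summed count, for the lincRNAs (blue) and all gene names tested (grey). Both sets are lower in IR+PR-LV more often at low counts (65.1% and 60.03%) than at 1000 counts or more (47.2% and 44.1%).

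LINC02605 was the member with the smallest p-value, and it and LINC02604, LINC00265 and LINC00888 are named here after their values were seen. LINC02605 (chr8, 78837529 to 78840522, plus strand, 1 exon block) was at 12.9, 11.7 and 13.0 CPM in the control group and at 8.09, 8.36 and 8.04 CPM in the PRDM16 group. Its libraries did not overlap, and the SD within the PRDM16 group was 0.171 CPM. The log2 fold change was -0.61 (SE 0.11), with an adjusted p of 0.0803 (edgeR). The adjusted p was 0.0156 in DESeq2 and 0.0082 without the filter on low counts, and up to 0.320 when a library was left out. LINC02605 lies inside the body of another noncoding gene on the same strand, LOC105375914, with no shared exon base. LOC105375914 was at 13.9, 13.2 and 10.6 CPM and at 8.50, 10.4 and 9.99 CPM, a log2 fold change of -0.38 (SE 0.14, adjusted p 0.395). IL7, which encodes a lymphocyte growth factor, lies 30699 bases to the left of LINC02605 and was at 8.23 ± 0.282 and 8.54 ± 0.810 CPM.

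LINC02604 (chr7, 66904120 to 66906297, 1 exon block) was at 3.69, 4.64 and 5.32 CPM and at between 2.85 and 3.04 CPM, with a log2 fold change of -0.61 (SE 0.17, adjusted p 0.275). LINC00265 (chr7, 39733568 to 39794623), whose window is printed above, was at 8.39, 7.06 and 12.3 CPM and at 5.41, 5.54 and 6.08 CPM, a log2 fold change of -0.69 (SE 0.20, adjusted p 0.285). LINC00888 (chr3, 183447608 to 183456013) was at 17.0, 16.1 and 17.1 CPM and at 12.5, 13.7 and 13.5 CPM, a log2 fold change of -0.33 (SE 0.10, adjusted p 0.287). In all 3 every PRDM16 library lay below every control library, and none passed the adjusted threshold in edgeR. Without the filter on low counts, LINC00265 passed together with LINC02605, in a fit that called 1.29% of 27403 names. Without IR+NC-LV replicate 3, the highest library, the log2 fold change of LINC00265 was -0.44.

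Among the nuclear scaffolds, NEAT1 was at 474, 433 and 526 CPM in the control group and 399, 372 and 448 CPM in the PRDM16 group, and the groups overlapped by a single library. Its log2 fold change was -0.23 (SE 0.09, adjusted p 0.409). MALAT1 was at 643, 629 and 586 CPM and at 583, 563 and 653 CPM, a log2 fold change of -0.05 (SE 0.07, adjusted p 0.855). For the proteins listed next, the shares over all names were 51.1% higher (55.9% among names with 1000 or more counts) and 10.5% with an unadjusted p under 0.05. The 16 paraspeckle proteins, which bind NEAT1, had 11 members higher and 5 lower in the PRDM16 group, a median log2 fold change of 0.05, 4 with an unadjusted p under 0.05 and 0 called by edgeR or DESeq2. Of its core proteins, SFPQ was at 0.03 (SE 0.07) and NONO at -0.03 (SE 0.06). Of the 12 nuclear speckle proteins 9 were higher, with a median of 0.03, 2 with an unadjusted p under 0.05 and 0 called by either tool. SRSF1, a splicing factor of the speckles, was at 428 ± 6.69 and 473 ± 13.8 CPM (log2 fold change 0.14, SE 0.06, adjusted p 0.413). A mixed list of 19 genes held factors of nuclear RNA decay and 3′ end processing. It also held the RNA methyltransferases METTL3 and METTL16 and the RNA-binding proteins ELAVL1, IGF2BP1, IGF2BP2 and IGF2BP3. Of the 19, 15 were higher, with a median of 0.07, 2 with an unadjusted p under 0.05 and 0 called by either tool. The decay factors were not counted apart. Every PRDM16 library was higher for 6 of the 19 and lower for 1, where 7.44% and 9.48% of all names did so. The 2 with an unadjusted p under 0.05 went in opposite directions. MTREX, the helicase that feeds RNA to the nuclear exosome, was at 178, 184 and 188 CPM and at 201, 216 and 211 CPM (log2 fold change 0.19, SE 0.06, adjusted p 0.330). ZCCHC8 was lower in every PRDM16 library, at 92.4, 88.7 and 102 CPM and at 79.7, 84.0 and 84.2 CPM (log2 fold change -0.19, SE 0.07, adjusted p 0.400).

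PVT1 (chr8, 127794533 to 128101253, plus strand, 9 exon blocks) was at 25.1, 24.2 and 32.6 CPM in the control group and 24.0, 20.3 and 21.9 CPM in the PRDM16 group. Every PRDM16 library was lower, though the nearest values differed by little, and the log2 fold change was -0.30 (SE 0.12, adjusted p 0.439). Without IR+NC-LV replicate 3 it was -0.16. MYC, the transcription factor gene 51582 bases to its left, was at 253 ± 19.1 and 227 ± 15.6 CPM (log2 fold change -0.15, SE 0.08, adjusted p 0.510) with overlapping groups. H19 was at 0.595, 0.426 and 0.431 CPM and at 1.01, 0.607 and 0.815 CPM. Its PRDM16 libraries were all higher, by a log2 fold change of 0.69 (SE 0.33, adjusted p 0.501) that rests on 74 counts. LINC00839 was at 34.8, 37.6 and 34.9 CPM and at 40.4, 41.4 and 38.6 CPM, a log2 fold change of 0.17 (SE 0.07, adjusted p 0.483) with no overlap. Besides NEAT1, the others of the 10 highest in TPM had log2 fold changes between -0.13 (LINC00673) and 0.14 (LINC01111), and their groups overlapped.

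The largest differences were found in members with few counts. LINC01181 (chr8, 103121032 to 103140355) was at 1.31, 0.711 and 0.719 CPM and at 0.476, 0.393 and 0.272 CPM, a log2 fold change of -1.25 (SE 0.38, adjusted p 0.315). It was the only member beyond 1 on the log2 scale, and 14.8% of its exon bases are covered on the opposite strand by BAALC-AS2, which had no count. Reads of both cannot be told apart if the counting ignored strand. LINC00882 (chr3, 107109790 to 107240638) was at 0.833, 0.569 and 1.01 CPM and at 0.416, 0.357 and 0.435 CPM (log2 fold change -0.96, SE 0.34, adjusted p 0.386). DUBR, a lncRNA whose start lies 54 bases from that of LINC00882 on the other strand, was at 9.40 ± 0.247 and 9.36 ± 0.219 CPM. So the members of this divergent pair had different values: -0.96 and -0.0071 on the log2 scale, a difference that was not tested.

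LINC00886 (chr3, 156747343 to 156817062) was at 0.654, 0.758 and 1.08 CPM and at 0.297, 0.464 and 0.489 CPM (log2 fold change -0.93, SE 0.34, adjusted p 0.396). Its neighbour TIPARP, an aryl hydrocarbon receptor target 40573 bases away, was at 149 ± 12.9 and 121 ± 6.68 CPM, with no overlap and a log2 fold change of -0.30 (SE 0.08, adjusted p 0.225). LINC00910 (chr17, 43369845 to 43388898) was at 0.833, 0.758 and 0.791 CPM and at 0.119, 0.607 and 0.489 CPM (log2 fold change -0.85, SE 0.42, adjusted p 0.513). It was -0.50 without IR+PR-LV replicate 1 and -1.33 without IR+PR-LV replicate 2. LINC02827 and LINC00629 completed the 6 largest negative values without overlap, at -0.91 (SE 0.29, adjusted p 0.336) and -0.87 (SE 0.30, adjusted p 0.374). MIR503HG, a lncRNA that hosts a microRNA 3394 bases from LINC00629, was lower in every PRDM16 library (log2 fold change -0.28, SE 0.14, adjusted p 0.507), whereas PLAC1 on the other side was higher in every one (0.35, SE 0.27, adjusted p 0.729).

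On the higher side, LINC01698 (chr1, 209372055 to 209379690) was at 0.714, 0.426 and 0.287 CPM in the control group and 0.892, 0.821 and 0.815 CPM in the PRDM16 group, a log2 fold change of 0.79 (SE 0.34, adjusted p 0.455). LINC02614, LINC00957 and LINC02609 followed with 0.73 (SE 0.36), 0.46 (SE 0.33) and 0.35 (SE 0.17), and adjusted p of 0.510, 0.673 and 0.508. LINC02246 (chr21, 14816838 to 14918668), the one of this group with over 1000 counts, was at 7.91, 7.44 and 7.98 CPM and at 8.62, 9.53 and 10.4 CPM (log2 fold change 0.29, SE 0.12, adjusted p 0.450). Its neighbour NRIP1, which encodes a nuclear receptor corepressor 42567 bases away, was at 432 ± 11.3 and 465 ± 17.3 CPM, also without overlap (log2 fold change 0.11, SE 0.06, adjusted p 0.559).

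**Figure D3:**
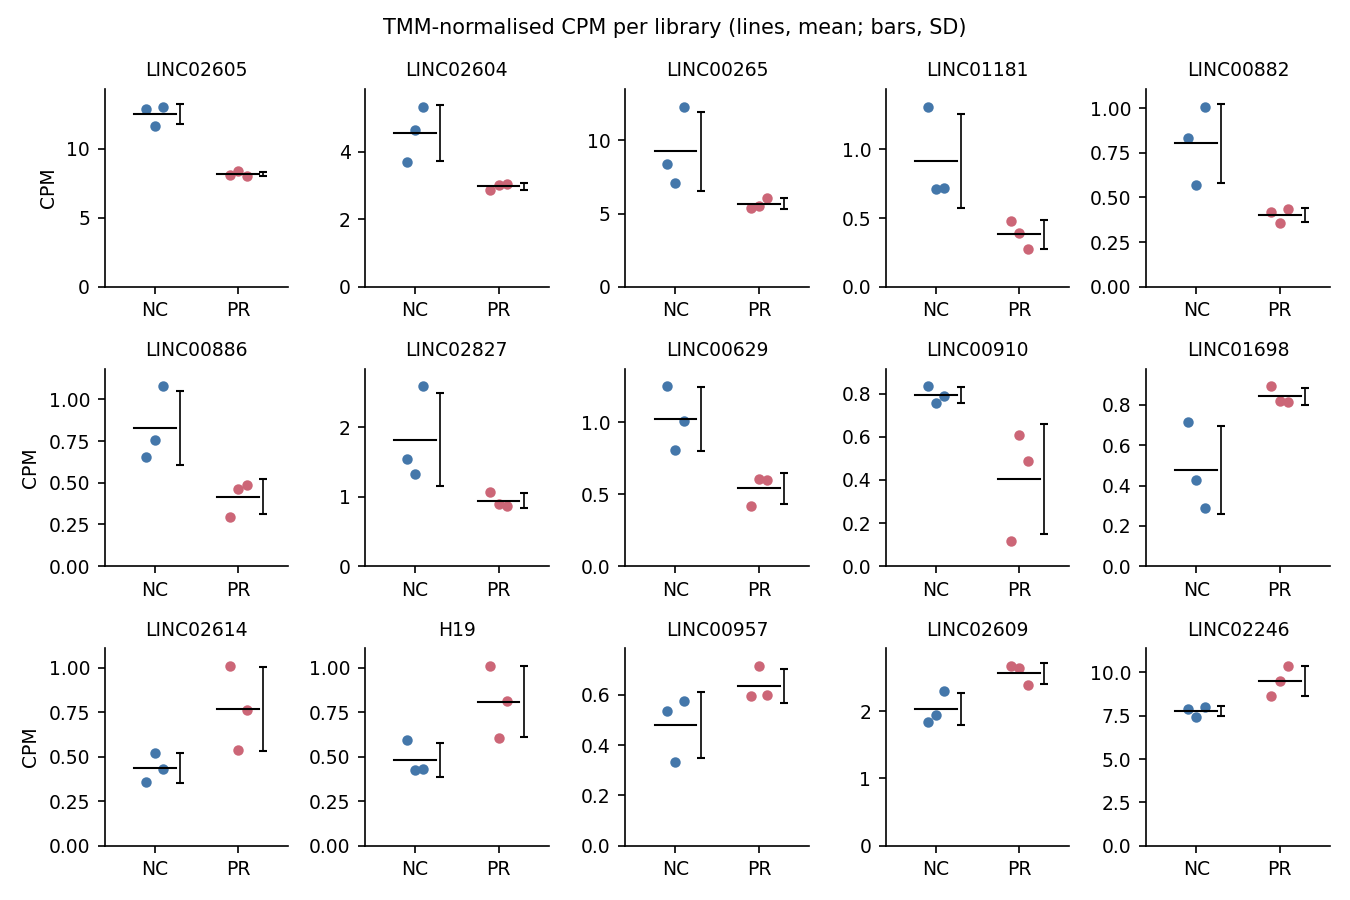
TMM-normalised CPM (axes from 0) of 15 lincRNAs in the IR+NC-LV (NC, blue) and IR+PR-LV (PR, red) libraries, with the group mean as a line and the SD beside it. The first 9 are lower and the last 6 higher in every IR+PR-LV library, and LINC02605 has the smallest p-value of the 15 (12.5 ± 0.739 against 8.16 ± 0.171 CPM).

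Further members were taken from names common in the lncRNA literature. LINC00472 had close values in both groups, at 65.4, 63.1 and 65.6 CPM and at 64.4, 63.8 and 69.4 CPM (log2 fold change 0.03, SE 0.07). LINC00460 was at 1.55, 0.948 and 2.23 CPM and at 0.713, 0.964 and 1.19 CPM (-0.65, SE 0.33, adjusted p 0.526, and -0.34 without IR+NC-LV replicate 3), and its groups overlapped. LINC01638, LINC00511 and LINC01705 had log2 fold changes of -0.26 (SE 0.19), -0.13 (SE 0.28) and 0.26 (SE 0.39), all with overlap. For LINC00511 a single PRDM16 library was low, at 1.07 CPM, with the other 2 at 2.54 and 2.50 CPM. Of 20 lncRNAs outside the naming rule, such as TUG1 and NORAD, 16 were tested. Of these, 9 were higher (51.1% over all names) and 7 lower, with a median log2 fold change of 0.06. In edgeR, 3 had an unadjusted p under 0.05 (10.5% over all names), and 0 were called by edgeR or DESeq2. Of the 3, LINC-PINT, a target of p53, was at 22.8 ± 0.705 and 19.6 ± 0.719 CPM with no overlap (log2 fold change -0.22, SE 0.08, adjusted p 0.414). CYTOR was at 27.4 ± 5.62 and 22.0 ± 1.22 CPM with overlapping groups (-0.32, SE 0.14, adjusted p 0.459). UCA1 was at 53.2 ± 1.79 and 59.4 ± 2.24 CPM (0.16, SE 0.07, adjusted p 0.451).

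Many members lay close to or over other genes. Another gene body overlapped 88 members (34.9%, against 45.1% of all names tested), and exon bases were shared by 38 members, by 4 on the same strand and by 34 on the opposite strand only. For 44 members (17.5%, against 29.01%) the start lay within 1000 bases of the start of a gene on the other strand. Both genes were tested in 28 distinct pairs of this kind, of which 4 joined members to each other, and both had the same sign of the log2 fold change in 20. In the 24 pairs with a partner that was no member, the member had the higher TPM in 5. These shares were not computed for such pairs among all names, so whether they are particular to lincRNAs cannot be told. Promoter windows of 10 pairs of members shared a stretch of 20 identical bases. Counted as overlapping stretches, LINC01123 and LINC01106 shared 270, and pairs of LINC01061, LINC01001 and LINC01002 shared 148 to 192. Pairs of LINC01138, LINC01145 and LINC00869 shared 63 to 140. The windows lie mostly before the start, and likeness of the exons was not examined. Whether the counting split reads between copies was not tested, so the values of these members are uncertain.

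Members with and without each word were compared after the data were seen, and AP-1 is described because it showed the largest difference of the 5 words. Of the 23, 21 had a log2 fold change below 0, with a median of -0.29, whereas 72 of the 130 members with a window and no AP-1 letters did, with a median of -0.04. The 23 had a median of 2.31 TPM and the 130 of 3.06 TPM. Their median deviation on log2 CPM was 0.11, 0.05 and 0.12 with the control virus and -0.18, -0.09 and -0.13 with PRDM16, which did not overlap, against 0.02, 0.03 and 0.08 and -0.04, -0.05 and 0.03 for the other members. AP-1 was chosen by these same values, so this gap between the groups is no separate support. For the nuclear receptor half-site, 22 of 31 members were lower (71.0%, median -0.14), against 58.2% of 122 without it (median -0.07). For the TATA box it was 61.1% against 60.7%, for CCAAT 59.4% against 61.8% and for the GC box 64.6% against 58.0%. Single members were less clear: 0 passed the adjusted threshold in edgeR or DESeq2, 2 had an unadjusted p under 0.05 in edgeR (8.70%, against 8.46% of the 130), and 3 (LINC02709, LINC01943 and LINC02827) were lower in every PRDM16 library (13.0%, against 13.1% of the 130). By these counts the sets had like shares. LINC02709 (chr11, 9754770 to 9759533) was at 2.74, 2.08 and 3.31 CPM and at 1.43, 1.61 and 1.90 CPM (log2 fold change -0.70, SE 0.22, adjusted p 0.335). The abundant LINC00963 and LINC02535, printed above, were at -0.04 (SE 0.10) and -0.11 (SE 0.13).

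The same letters went with a smaller lean in wider sets. The first 2 of these sets include the members: 23 of the 413 names and 21 of the 186 names below are members. Among all tested names with a window, 58.1% of the 413 with AP-1 letters were lower (median -0.04), against 48.0% of the 11322 without (median 0.0075). Among names under 1000 counts it was 66.7% of 186 (median -0.13) against 58.8% of 3227 (median -0.07). Other lncRNAs, the set here that holds no member, were lower in 62.7% of 59 against 57.8% of 880. Without LINC01061, LINC01001 and LINC01002, whose windows are near copies, 18 of 20 members with AP-1 letters were lower and the median moved to -0.18. When a library was left out, 18 to 21 of the 23 were lower. Neither difference has a test, and the members share the same 6 libraries.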

How the data were processed

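RNA from HK-2 cells was selected with oligo(dT) beads and sequenced from both ends. The authors deposited, per library, counts of reads per gene (featureCounts 2.0.1 in the submitters' processing notes, which also name hg38, CASAVA and DESeq2 1.16.1), without normalization. The aligner and the strand setting are not given in the sources used here. The deposited TPM values are the count over the gene length, brought to a common sum, and were used only to compare levels between genes. The deposited FPKM values were not used. Each table lists 38648 rows, summed to 34644 gene names.

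The members and lists were chosen with earlier results of these data known. Gene names with a summed count of at least 60 (15110) were fitted with edgeR 4.0.16 in R 4.3.3 (TMM, factors 0.981 to 1.04, glmQLFit and glmQLFTest, no covariates), with Benjamini-Hochberg adjustment over all of them. Standard errors come from the log2 fold change and F. CPM values are TMM-normalised and log2 CPM used a prior count of 2. Named were MALAT1, NEAT1, PVT1, H19 and MEG3, the 10 members highest in TPM, the 6 largest changes in each direction without overlap between groups, the names on either side of the count of 60, LINC01638, LINC00472, LINC00511, LINC00460 and LINC01705, and neighbours of the named members, of which 1 is not reported here. Names of genes beside members, overlaps and distances come from the coordinates in the tables. Alternatives were DESeq2 1.42.0, normalization by RLE or the upper quartile, other filters, rows not summed, a replicate block, leaving out single libraries, and thinning. Tested on simulated counts for this comparison (14999 gene names), the fit recovered 160 of 200 genes set to differ by a log2 fold change of 1, with 16 false calls. Of those below the members' median level, 5 of 29 were. Limits stated from counts hold for counting error alone, because no molecular identifiers were read and PCR copies may be counted.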

Additional observations from a re-analysis of the deposited data

How the results depend on the processing

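No lincRNA was called under RLE or upper-quartile normalization, filterByExpr (245 members tested), rows not summed, the replicate block or any of the 6 fits that left out a library. The number called was 2 without a filter beyond 1 count (LINC00265 and LINC02605) and 1 with DESeq2 (LINC02605). Over all gene names, 13 were called in the edgeR fit reported, 354 without the filter and 154 with DESeq2. Leaving out a library gave between 2 (without IR+PR-LV replicate 3) and 32 (without IR+NC-LV replicate 2) called names, with 6 without IR+PR-LV replicate 1, while the number of lincRNAs stayed at 0. The causes were not tested.

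The number of lincRNAs with a log2 fold change below 0 lay between 146 and 165, and their median between -0.13 and -0.06 when a library was left out. Of 350 values of 27 named lincRNAs, 346 kept their direction. The other 4 were LINC01705 at -0.010 without IR+NC-LV replicate 2, LINC01508 at -0.035 without IR+NC-LV replicate 3, LINC00511 at 0.14 without IR+PR-LV replicate 1 and LINC00472 at -0.014 without IR+PR-LV replicate 3. With libraries left out in turn these members ranged from -0.010 to 0.65, from -0.035 to 0.22, from -0.34 to 0.14 and from -0.014 to 0.048. Of 32 members named or with the lowest p-values, 17 moved by over 1.5 times when some library was left out, among them LINC02827 (-0.61 without IR+NC-LV replicate 3), LINC00957 (0.22 without IR+NC-LV replicate 2) and LINC01638 (-0.40 without IR+NC-LV replicate 3), and 15 did not. The median number of LINC names detected per library became 669.5 after thinning to the smallest library.

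No pairing by replicate number was visible: the correlations of same-numbered libraries' deviations were -0.03, 0.05 and 0.05 across 15110 gene names. For libraries with different numbers they lay between -0.10 and 0.07. The check cannot show whether libraries shared a culture or a day. With the replicate block, 18 gene names and 0 lincRNAs were called. The medians of lincRNAs with AP-1 letters lay between -0.30 and -0.23 over these alternatives with the near copies kept. All 23 members entered, except under filterByExpr, which kept 19. Without the 3 near copies the median was -0.18, and -0.12 when filterByExpr was applied as well. For this median the alternatives were added after seeing the data. Of the 252 lincRNAs, 146 had fewer than 200 counts in all, and the effect of depth on their fit was not tested.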
